A study of Homo sapiens with 12 samples.

Results

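The genes described here are 9 that were picked for lower transcript levels after SRC-1 siRNA in U2OS-ERα cells and that encode no cytokine: GPR180, GPR65, MTMR4, NCEH1, GRAMD1B, SS18, KLHL5, CRCT1 and TOR1AIP2. Each is represented by the probe set annotated with that symbol alone, and, where a gene has several, by the one with the highest mean over the 12 arrays. All 9 were found, among 18417 genes that have a probe set with 1 symbol. By that rule 8 of the 9 were lower with SRC-1 siRNA; TOR1AIP2 was not, because its brighter probe set did not follow the other one.

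U2OS-ERα is a human osteosarcoma line that carries estrogen receptor α; whether it is 1 clone, and how the receptor is driven, is not given in the sources used here. The 4 groups held 3 biological replicates each, on 12 Affymetrix Human Gene 1.0 ST arrays. They were SRC-1 siRNA with 17-B-estradiol (siSRC-1_E), SRC-1 siRNA with ethanol vehicle (siSRC-1_V), non-targeting siRNA with 17-B-estradiol (NT_E) and non-targeting siRNA with ethanol vehicle (NT_V). All cells were transfected with 50 nM of a pooled siRNA, moved to medium with charcoal-stripped serum, which is low in steroids, and treated for 3 h. A single pool against SRC-1 was used, so an effect of SRC-1 loss and an effect of that pool cannot be told apart.

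SRC-1, encoded by NCOA1, is a p160 coactivator: it binds nuclear receptors that hold their ligand and brings histone acetyltransferases to their target genes. Without added hormone it can also serve other transcription factors. The genes picked for their loss belong to no single pathway. GPR180 and GPR65 are 7-transmembrane proteins, MTMR4, NCEH1 and GRAMD1B act on lipids, and SS18 is a chromatin protein. KLHL5 is a ubiquitin ligase adaptor, CRCT1 a protein of the epidermis and TOR1AIP2 a protein of the endoplasmic reticulum.

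Promoter windows, from 250 bases before to 50 after an annotated start, were found in RefSeq (GRCh38.p14) for 7 of the 9 genes, 9 windows in all, as MTMR4 and SS18 have more than 1 start. They are shown for GPR65 and NCEH1, the genes called for the estradiol effect averaged over both siRNAs, and for TOR1AIP2, whose probe sets disagreed. GPR180 is shown as well, as its measured loss was smaller under estradiol, a difference that was not called. The measured losses of SS18, MTMR4 and KLHL5 were also smaller under estradiol, none of them called, and their windows are not shown. Capitals mark matches, on either strand, to one of these motifs: the CCAAT box, by its own letters; the GC box, searched as GGGCGG; the TATA box, searched as TATAAA; and the estrogen receptor half-site, searched as GGTCA.
GPR65, chr14:88004885-88005184, plus strand: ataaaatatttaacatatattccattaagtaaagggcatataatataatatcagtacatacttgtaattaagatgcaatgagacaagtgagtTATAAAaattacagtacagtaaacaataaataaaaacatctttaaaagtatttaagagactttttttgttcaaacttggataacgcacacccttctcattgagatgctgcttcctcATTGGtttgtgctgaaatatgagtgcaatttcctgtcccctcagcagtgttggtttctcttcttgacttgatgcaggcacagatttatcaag
NCEH1, chr3:172711018-172711317, minus strand: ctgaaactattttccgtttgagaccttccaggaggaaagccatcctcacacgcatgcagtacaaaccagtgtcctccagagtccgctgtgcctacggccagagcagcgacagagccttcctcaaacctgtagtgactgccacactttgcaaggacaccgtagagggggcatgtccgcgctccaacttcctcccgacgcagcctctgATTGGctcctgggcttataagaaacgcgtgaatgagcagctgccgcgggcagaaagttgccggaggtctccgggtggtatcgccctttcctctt
TOR1AIP2, chr1:179877754-179878053, minus strand: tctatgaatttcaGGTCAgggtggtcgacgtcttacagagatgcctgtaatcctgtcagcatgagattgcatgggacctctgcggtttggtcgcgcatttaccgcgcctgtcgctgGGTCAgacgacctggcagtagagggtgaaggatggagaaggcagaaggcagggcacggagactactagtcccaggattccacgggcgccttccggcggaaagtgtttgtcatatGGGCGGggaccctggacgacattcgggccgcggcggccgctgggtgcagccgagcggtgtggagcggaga
GPR180, chr13:94601607-94601906, plus strand: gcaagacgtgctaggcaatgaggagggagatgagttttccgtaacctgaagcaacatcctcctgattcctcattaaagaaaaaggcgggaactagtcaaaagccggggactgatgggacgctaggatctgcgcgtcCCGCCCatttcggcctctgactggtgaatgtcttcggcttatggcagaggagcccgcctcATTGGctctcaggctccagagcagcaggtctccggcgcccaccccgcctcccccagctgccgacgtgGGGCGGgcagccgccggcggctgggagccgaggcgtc

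These windows differed widely in composition. GC content was 31.7% in GPR65 and 33.3% in KLHL5, and 56.7% to 68.7% in the windows of the other 5 genes, against a median of 58.7% over all 35116 windows. GPR65 held 1 CG dinucleotide and KLHL5 held 2, while the others held 17 to 25 each. A GC box stood in 5 of the 9 windows (45% of all windows), a CCAAT box in 5 (34.6%), the half-site in 3 (37.4%) and a TATA box in 1 (11.5%). The windows with a half-site were both of those of SS18 and that of TOR1AIP2. The full estrogen response element GGTCANNNTGACC, the AP-1 site TGANTCA and the cyclic AMP response element TGACGTCA stood in 0 of the 9 windows, and in 0.057%, 7.71% and 1.85% of all windows. The half-site is contained in the full element; a match, or none, in such a window says nothing about binding.

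NCOA1 itself (probe set 8040552) was measured first, as a check of the labels. It read 6.79, 6.88 and 6.92 log2 with SRC-1 siRNA and estradiol, against 9.15, 9.06 and 9.02 with non-targeting siRNA and estradiol. With vehicle it read 6.18, 5.62 and 5.78 with SRC-1 siRNA, against 8.81, 8.72 and 8.83 with non-targeting siRNA. The groups did not overlap, 21.5% of the transcript was left under estradiol and 13.2% under vehicle, and NCOA1 had the lowest log2 difference of all 29094 probe sets tested under either treatment. Of the 10 measured osteoblast and mesenchymal markers, VIM and SPARC averaged 12.46 and 12.54 log2 and RUNX2 7.21 over the 12 arrays, whereas IBSP lay below the lower quartile of each array. With SRC-1 siRNA 2 of the 10 were called lower under estradiol, where 1.07% of all probe sets were. They were SPP1 at -0.87 and ALPL, the bone alkaline phosphatase, at -0.43 log2. Under vehicle 3 were, SPP1 at -0.71, THY1, a mesenchymal surface protein, at -0.28 and ALPL at -0.23, where 0.945% of all probe sets were. The mean level of this list was 8.58 to 8.64 log2 in siSRC-1_E arrays, 8.63 to 8.69 in siSRC-1_V, 8.68 to 8.78 in NT_E and 8.75 to 8.82 in NT_V. The median siRNA difference of the 10 was 0.005 log2 under estradiol and -0.08 under vehicle, beside -0.006 and 0.001 over all probe sets. The lower list means thus owe much to SPP1 and are no general marker loss. Their part in the losses below was not tested. Of the 7 leukocyte markers, PTPRC and LYZ lay below the lower quartile on all 12 arrays; CD3E, CD14, ITGAM and LCK averaged 5.67 to 6.40 log2, and CD68, a lysosomal protein, averaged 10.61. None of the 9 genes fell below the lower quartile on any array. Array medians were 6.86 to 6.90 log2; precision is limited by the number of arrays, with a median standard error of 0.071 log2 for a difference between groups of 3.

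Calls follow the threshold of the design text: in limma, over all 29094 probe sets, p had to be under 0.01 and its Benjamini-Hochberg adjusted value under 0.05. The members were picked on the siRNA comparison, so what follows describes their loss and tests nothing. With vehicle, 8 of 9 were called lower, where 0.945% of all probe sets were, and with estradiol the same 8, where the share was 1.07%. The arrays of these 8 did not overlap between the siRNAs under either treatment. Over all probe sets the share lying apart in the lower direction was 10.2% with vehicle and 11.5% with estradiol. For estradiol against vehicle that share is not given here, so such separations, described below for single genes, are values only. For that comparison 23.2% of all probe sets had limma p under 0.05 before adjustment with SRC-1 siRNA, and 13.3% with non-targeting siRNA. All values are log2 expression as deposited, and in such bulk cultures fewer expressing cells and less RNA per cell cannot be told apart.

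**Figure D1:**
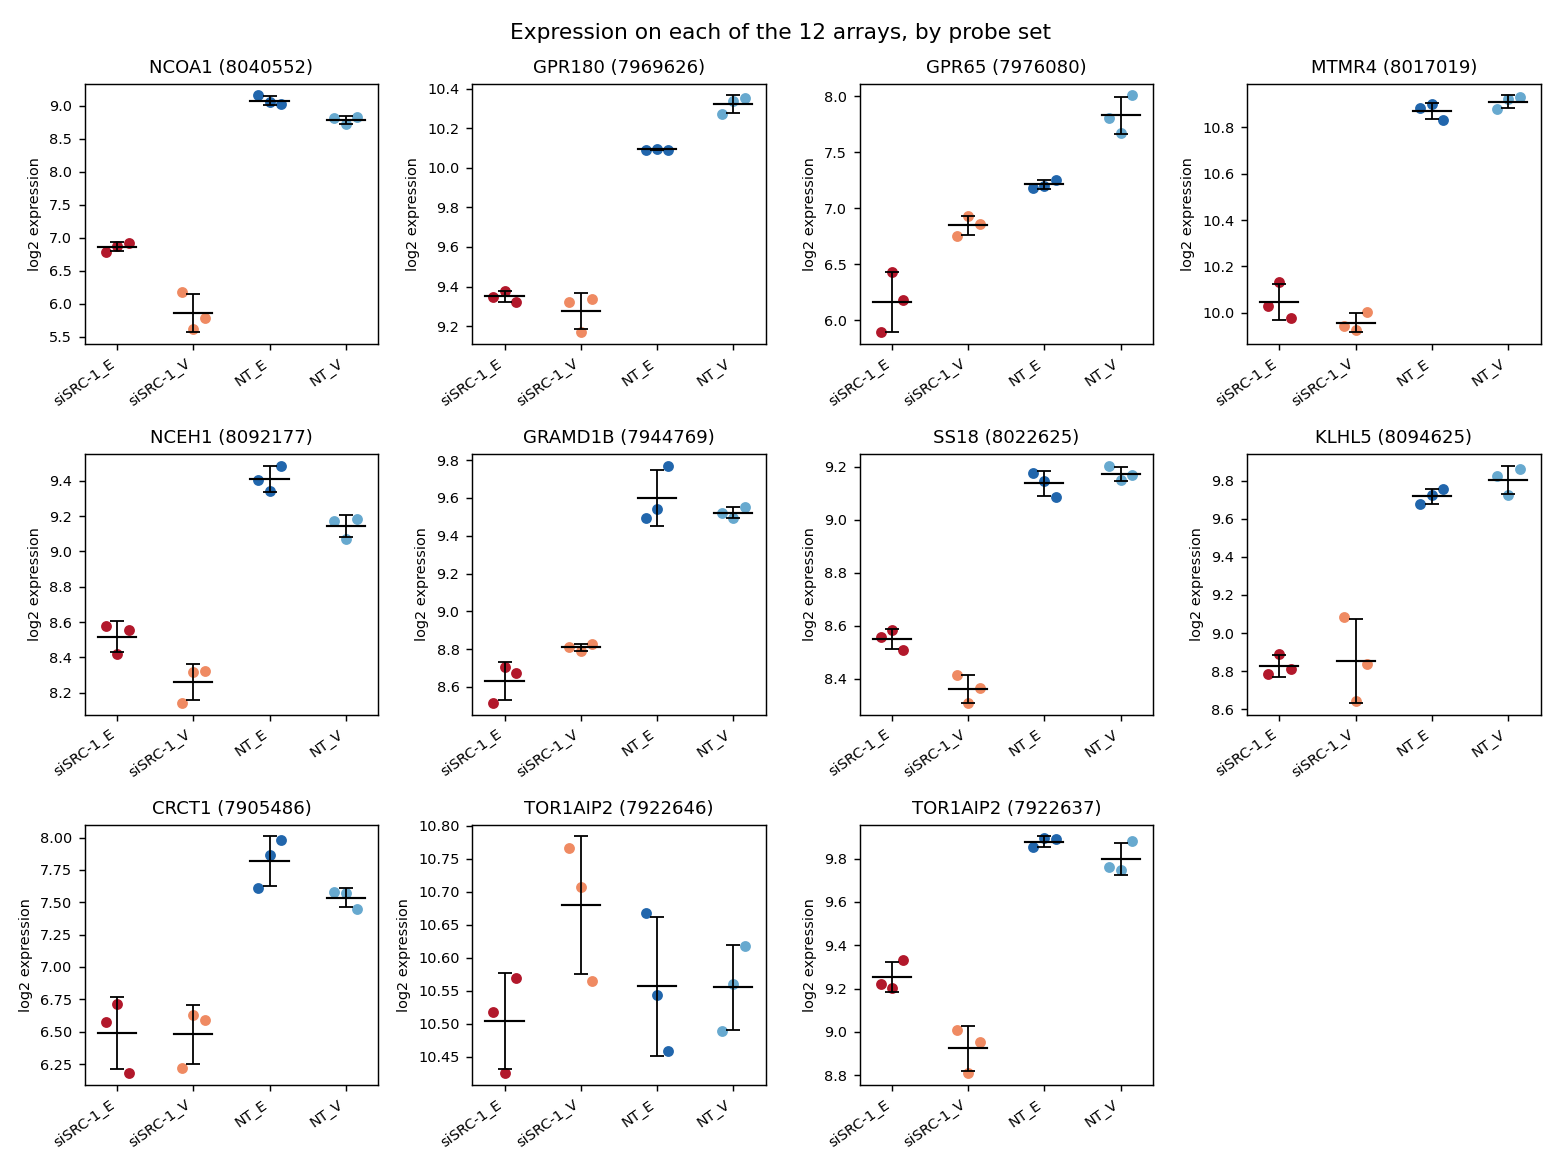
Log2 expression (y axis) of NCOA1, the 9 genes and the dimmer TOR1AIP2 probe set on each of the 12 arrays, by group (x axis). Points are arrays, in order of replicate number, and bars are the mean and SD of 3 arrays. The SRC-1 siRNA arrays lie below all non-targeting arrays in every panel except TOR1AIP2 probe set 7922646.

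The receptor-type genes come first. GPR180 (probe set 7969626) encodes an orphan 7-transmembrane protein, once named the intimal thickness-related receptor. It read 9.35, 9.38 and 9.32 log2 with SRC-1 siRNA and estradiol, against 10.09, 10.10 and 10.09 with non-targeting siRNA and estradiol. With vehicle it read 9.32, 9.17 and 9.34 with SRC-1 siRNA, against 10.27, 10.34 and 10.35 with non-targeting siRNA. The 2 groups with SRC-1 siRNA overlapped each other, while the NT_E arrays all lay below the NT_V arrays. Transcript with SRC-1 siRNA was 59.8% of the non-targeting level under estradiol and 48.4% under vehicle.

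GPR65 (probe set 7976080) encodes a proton-sensing receptor that raises cyclic AMP and is best known from leukocytes. It read 5.89, 6.43 and 6.18 log2 with SRC-1 siRNA and estradiol, against 7.18, 7.20 and 7.26 with non-targeting siRNA and estradiol. With vehicle it read 6.76, 6.93 and 6.86 with SRC-1 siRNA, against 7.81, 7.68 and 8.01 with non-targeting siRNA. These are 4 steps that do not overlap: siSRC-1_E lowest, then siSRC-1_V, NT_E and NT_V. The transcript left was 48.4% under estradiol and 50.7% under vehicle. The leukocyte marker list, for comparison, had mean levels of 6.06 to 6.17 log2 in siSRC-1_E arrays, 6.11 to 6.22 in siSRC-1_V, 6.20 to 6.27 in NT_E and 6.06 to 6.15 in NT_V. With SRC-1 siRNA 1 of its 7 genes, LYZ, was called lower under estradiol and 0 under vehicle. Of all probe sets 1.07% and 0.945% were. LYZ, below the lower quartile on all 12 arrays, rose with estradiol, by 0.47 log2 with SRC-1 siRNA and by 0.89 with non-targeting siRNA, unlike GPR65.

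The lipid-related genes follow. MTMR4 (probe set 8017019) encodes a phosphatase that removes phosphate from phosphatidylinositol 3-phosphate on endosomes. It read 10.03, 10.13 and 9.98 log2 with SRC-1 siRNA and estradiol, against 10.88, 10.90 and 10.83 with non-targeting siRNA and estradiol. With vehicle it read 9.94, 9.93 and 10.00 with SRC-1 siRNA, against 10.88, 10.92 and 10.93 with non-targeting siRNA. It divided by siRNA alone, with overlap between hormone and vehicle on both sides. The transcript left was 56.4% under estradiol and 51.7% under vehicle.

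NCEH1 (probe set 8092177) encodes a hydrolase of the endoplasmic reticulum that splits cholesteryl esters and ether lipids. It read 8.58, 8.42 and 8.56 log2 with SRC-1 siRNA and estradiol, against 9.40, 9.34 and 9.48 with non-targeting siRNA and estradiol. Under vehicle its values were 8.14, 8.32 and 8.32 with SRC-1 siRNA, against 9.17, 9.07 and 9.18 with non-targeting siRNA. Estradiol arrays lay above vehicle arrays within each siRNA, in the opposite order to GPR65. The share left was 53.9% under estradiol and 54.3% under vehicle.

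GRAMD1B (probe set 7944769) encodes a sterol carrier, also called Aster-B, that moves cholesterol to the endoplasmic reticulum. It read 8.52, 8.70 and 8.67 log2 with SRC-1 siRNA and estradiol, against 9.49, 9.54 and 9.77 with non-targeting siRNA and estradiol. The vehicle arrays gave 8.81, 8.79 and 8.83 with SRC-1 siRNA, against 9.52, 9.49 and 9.55 with non-targeting siRNA. All siSRC-1_E arrays lay below all siSRC-1_V arrays, whereas the non-targeting groups overlapped. Of the non-targeting level, 51.0% was left under estradiol and 61.0% under vehicle.

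SS18 (probe set 8022625) encodes a subunit of the BAF chromatin remodelling complex that is fused to SSX proteins in synovial sarcoma. It read 8.56, 8.58 and 8.51 log2 with SRC-1 siRNA and estradiol, against 9.18, 9.15 and 9.09 with non-targeting siRNA and estradiol. On vehicle arrays it stood at 8.42, 8.31 and 8.36 with SRC-1 siRNA, against 9.20, 9.15 and 9.17 with non-targeting siRNA. Its siSRC-1_E arrays all lay above its siSRC-1_V arrays, and it had the smallest loss of the 8 under estradiol. The transcript left was 66.5% under estradiol and 57.0% under vehicle.

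KLHL5 (probe set 8094625) encodes a Kelch-like protein, a family whose members bring substrates to the cullin 3 ubiquitin ligase. It read 8.78, 8.89 and 8.81 log2 with SRC-1 siRNA and estradiol, against 9.68, 9.72 and 9.76 with non-targeting siRNA and estradiol. Vehicle-treated cells gave 9.08, 8.64 and 8.84 with SRC-1 siRNA, against 9.83, 9.72 and 9.86 with non-targeting siRNA. The siSRC-1_V arrays spread most, at an SD of 0.22 log2 (n = 3), with replicate 1 highest; NCOA1 was also highest in that replicate. The share left was 53.9% under estradiol and 51.7% under vehicle.

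CRCT1 (probe set 7905486) encodes a small cysteine-rich protein whose gene lies in the epidermal differentiation complex. It read 6.58, 6.71 and 6.18 log2 with SRC-1 siRNA and estradiol, against 7.61, 7.86 and 7.98 with non-targeting siRNA and estradiol. Without hormone it read 6.22, 6.63 and 6.59 with SRC-1 siRNA, against 7.58, 7.57 and 7.45 with non-targeting siRNA. It had the largest loss of the 9 under either treatment and the widest spread, with a residual SD of 0.18 log2, above that of 95.6% of tested probe sets. The transcript left was 39.8% under estradiol and 48.1% under vehicle.

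TOR1AIP2 encodes LULL1, a membrane protein of the endoplasmic reticulum that activates torsin ATPases, and from other transcripts a short product named IFRG15. Its brighter probe set, 7922646, read 10.52, 10.43 and 10.57 log2 with SRC-1 siRNA and estradiol, against 10.67, 10.54 and 10.46 with non-targeting siRNA and estradiol. Its values under vehicle were 10.77, 10.71 and 10.56 with SRC-1 siRNA, against 10.49, 10.56 and 10.62 with non-targeting siRNA. The groups overlapped under both treatments. Between siRNAs it differed by -0.05 log2 under estradiol (95% interval from -0.21 to 0.10) and by 0.12 under vehicle (-0.03 to 0.28).

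The other TOR1AIP2 probe set, 7922637, lists 2 RefSeq mRNAs and shares none of them with the 1 listed for 7922646, nor any of its 4 accessions in all with the 7 of the other. It read 9.22, 9.20 and 9.33 log2 with SRC-1 siRNA and estradiol, against 9.85, 9.89 and 9.89 with non-targeting siRNA and estradiol. Without hormone its values were 9.01, 8.81 and 8.96 with SRC-1 siRNA, against 9.76, 9.75 and 9.88 with non-targeting siRNA. Here the siRNA groups lay apart under both treatments, and 64.8% of the transcript was left under estradiol and 54.6% under vehicle. The loss that put TOR1AIP2 on the list was thus seen in 1 of its 2 probe sets.

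**Figure D2:**
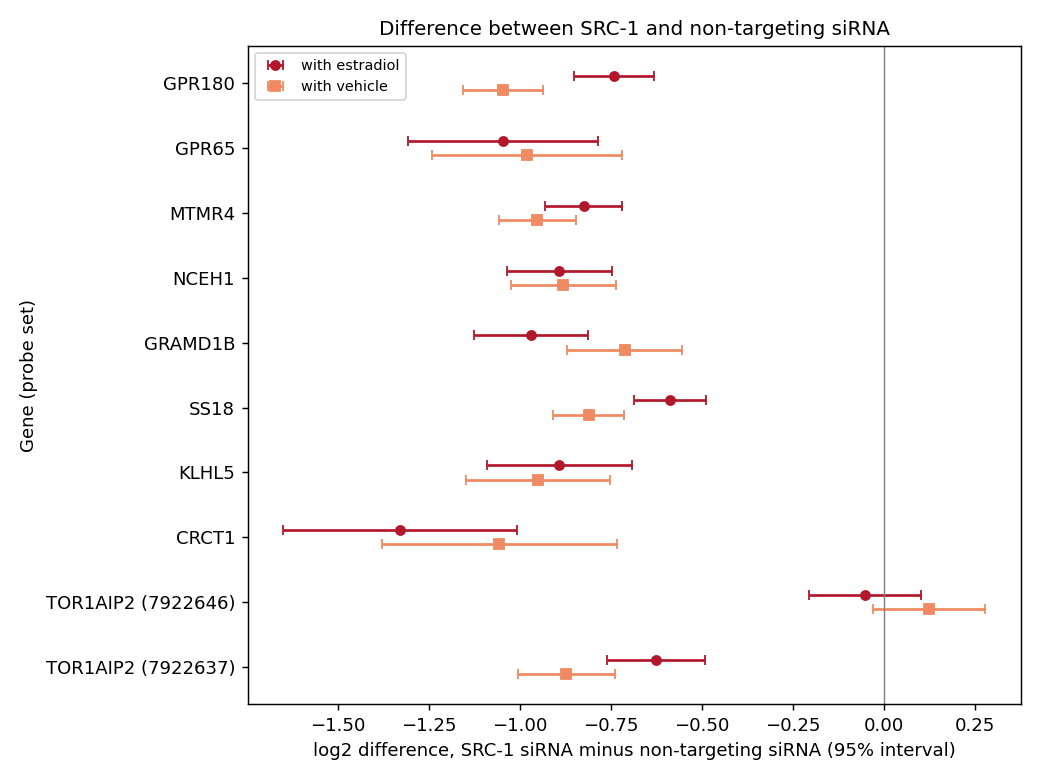
Log2 difference between SRC-1 and non-targeting siRNA (x axis) for each gene (y axis), with estradiol (circles) and with vehicle (squares). Bars are 95% intervals from limma. The 8 lowered genes lie between -1.33 and -0.59 with estradiol and between -1.06 and -0.71 with vehicle, and only TOR1AIP2 probe set 7922646 spans 0.

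Whether the loss was equal under estradiol and vehicle was read from the difference of the siRNA effects, estradiol minus vehicle. GPR180 gave 0.30 log2 (95% interval from 0.15 to 0.46) and SS18 gave 0.22 (0.09 to 0.36). Both measured losses were smaller under estradiol, but neither difference was called (limma adjusted p = 0.48 and 0.53). GRAMD1B differed the other way, by -0.26 with an interval from -0.48 to -0.04, and was not called either (limma adjusted p = 0.65). The remaining intervals covered 0. They ran from -0.22 to 0.19 around -0.01 for NCEH1, from -0.02 to 0.28 around 0.13 for MTMR4, and from -0.22 to 0.34 around 0.06 for KLHL5. Wider ones were found for GPR65, from -0.44 to 0.30 around -0.07, and CRCT1, from -0.73 to 0.18 around -0.27.

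For TOR1AIP2 the difference was -0.18 log2, from -0.40 to 0.04, in probe set 7922646, and 0.25, from 0.06 to 0.44, in 7922637. The genes were picked on the siRNA effects that enter these differences, so the intervals describe them and test nothing. Over the whole table limma called 0 of 29094 probe sets for this difference (0% called), while 2102 (7.22%) had p under 0.05 before adjustment; when the variance was modelled as trended and robust it called 2, neither of them a member. NCOA1 itself gave 0.71 log2 (0.36 to 1.06, limma adjusted p = 0.442). Of the 9 genes, by the rule's probe sets, 4 lay above 0 and 5 below.

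A hormone effect was tested as the estradiol effect averaged over both siRNAs. In this balanced design its estimate is uncorrelated with the siRNA differences that chose the genes. Its p-values still rest on the same variance of each probe set. The genes were also chosen with earlier results of these data known, so the test is not fully independent of the choice. Of the 9, GPR65 was called lower and NCEH1 higher, where 9.96% of all probe sets were called in either direction, 3.85% lower and 6.11% higher. GPR65 fell by 0.65 log2 with estradiol, to 63.7% of the vehicle level (SE 0.08, 95% interval from -0.83 to -0.47, limma adjusted p = 0.000504). It was the 14th lowest of 29094. NCEH1 rose by 0.26 log2 (SE 0.05, interval from 0.16 to 0.36, limma adjusted p = 0.00452), to 120% of the vehicle level.

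Both effects had about the same size with either siRNA. For GPR65 the difference between estradiol and vehicle was -0.68 log2 with SRC-1 siRNA and -0.62 with non-targeting siRNA, and for NCEH1 it was 0.26 and 0.27. The lowest GPR65 values thus came with SRC-1 siRNA and estradiol together, at a mean of 6.17 ± 0.27 log2 (SD, n = 3), against 7.83 ± 0.17 with non-targeting siRNA and vehicle. NCEH1, in contrast, was highest in NT_E, at 9.41 ± 0.07, and lowest in siSRC-1_V, at 8.26 ± 0.10.

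Probe sets that were kept out of the tests as likely controls, judged by their low numbers alone, differed between treatments as well. Their array mean deviated by -0.003 to 0.178 log2 on estradiol arrays and by -0.159 to -0.024 on vehicle arrays. With this array mean as a covariate the averaged effect was -0.56 ± 0.20 log2 (SE) for GPR65 and 0.24 ± 0.11 for NCEH1, and neither was called (limma adjusted p = 0.344 and 0.474). The covariate separates the treatments and so widens the errors; its part in the hormone effects was not otherwise tested. The calls of both genes held in all 12 fits that left out 1 array.

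For the other 7 genes the averaged estradiol effect was not called. It was 0.15 log2 for CRCT1 (95% interval from -0.08 to 0.37), 0.08 for SS18 (0.01 to 0.14), 0.02 for MTMR4 (-0.05 to 0.10) and -0.05 for GRAMD1B (-0.16 to 0.06). KLHL5 (-0.06, from -0.20 to 0.08), GPR180 (-0.08, from -0.15 to 0.0009) and TOR1AIP2 probe set 7922646 (-0.09, from -0.20 to 0.02) lay slightly below 0. These intervals leave room for changes of up to 0.37 log2 for CRCT1 and of up to 0.20 for the other 6. TOR1AIP2 probe set 7922637 rose by 0.20 log2 (0.11 to 0.30, limma adjusted p = 0.0122), opposite in sign to 7922646, but by 0.007 with the covariate. NCOA1 itself rose with estradiol, by 0.65 log2 on average (limma adjusted p = 0.000349), 1.00 with SRC-1 siRNA and 0.29 with non-targeting siRNA. With the covariate its average was 0.30 and not called. What this rise means for the losses of the 9 genes was not tested.

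**Figure D3:**
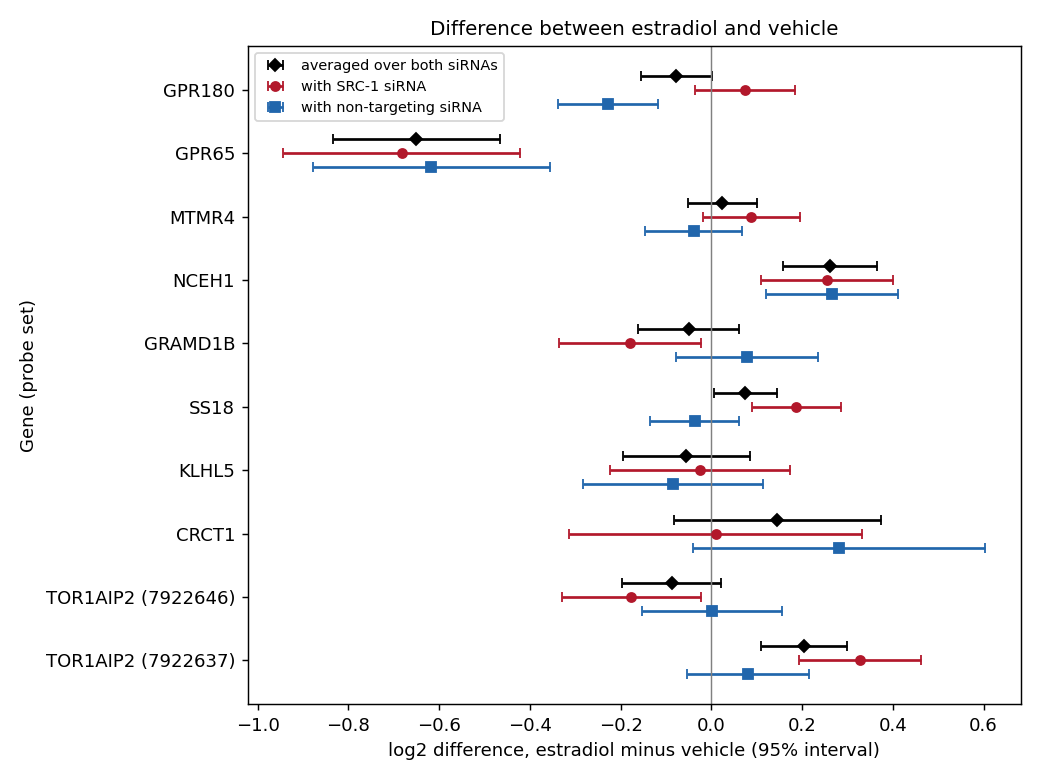
Log2 difference between estradiol and vehicle (x axis) for each gene (y axis), averaged over both siRNAs (diamonds), with SRC-1 siRNA (circles) and with non-targeting siRNA (squares). Bars are 95% intervals from limma. Among the averages of the 9 genes GPR65 lies furthest left, at -0.65, and NCEH1 furthest right, at 0.26.

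In single siRNA groups, which share arrays with the comparison that chose the genes, other differences are given as values only. Of the 9, 3 were called with SRC-1 siRNA (GPR65, SS18 and NCEH1), where 6.88% of all probe sets were, and 2 with non-targeting siRNA (GPR180 and GPR65), where 2.73% were. GPR180 differed by 0.07 log2 between estradiol and vehicle with SRC-1 siRNA and by -0.23 with non-targeting siRNA. SS18 differed by 0.19 and -0.04, and GRAMD1B by -0.18 and 0.08. These pairs make up the differences of the siRNA effects given above, none of which was called. The larger shift with hormone was in the SRC-1 siRNA arrays for SS18 and GRAMD1B, and in the non-targeting arrays for GPR180.

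Relatives and partners of the 9 genes were compared between siRNAs in the same way. In 7 lists with 153 genes, 145 were measured; 0 were called with vehicle and 2 lower with estradiol, where 1.21% and 1.8% of all probe sets were called in either direction, so the lists lay near the background. Differences of their genes ran from -0.44 to 0.31 log2 under estradiol and from -0.23 to 0.26 under vehicle. The close relatives named next were mostly chosen after their values were seen. SS18L1, the paralogue of SS18, differed by 0.12 log2 under estradiol and 0.06 under vehicle, and MTMR3, the paralogue of MTMR4, by 0.09 and 0.13. The 14 myotubularins, MTMR3 among them, ran from -0.31 to 0.13 under estradiol and from -0.21 to 0.14 under vehicle. GRAMD1A, another sterol carrier, differed by -0.06 and -0.05, and TOR1AIP1, the other torsin activator, by -0.10 under both. AADAC, of the sterol list, averaged 3.62 log2 with SRC-1 siRNA, against 4.05 with non-targeting siRNA, under estradiol. It lay below the lower quartile on all 12 arrays and was not called. GPR4, a proton sensor like GPR65, differed by -0.36 under estradiol and -0.23 under vehicle and was not called. The brightest members of the lists without a call differed less than GPR4. GPR108 gave -0.05 under estradiol and -0.11 under vehicle, and WLS, a carrier of Wnt proteins, -0.03 and -0.10. MTMR2 gave -0.05 and -0.11, and MTMR12, in the other direction, 0.13 and 0.14.

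List medians under vehicle were -0.07 log2 for the 8 proton-sensing and GOST-type receptors, the group named for the fold that GPR180 belongs to, -0.09 for 14 myotubularins and -0.005 for 24 BAF genes. They were 0.02 for 27 epidermal differentiation genes, 0.01 for 37 Kelch-like and cullin 3 genes, -0.03 for 19 sterol genes and 0.02 for 16 torsin and nuclear envelope genes, beside 0.001 over all probe sets. Under estradiol the same lists had medians of -0.04, -0.02, 0.003, -0.06, -0.01, -0.0002 and 0.07, beside -0.006 over all. The 2 called under estradiol were NPC1, which exports cholesterol from lysosomes, at -0.26 log2 (limma adjusted p = 0.015), and KLHL21, a mitotic cullin 3 adaptor, at -0.26 (0.0448). NPC1 kept its call in 9 and KLHL21 in 3 of 12 fits that left out 1 array, and KLHL21 lost it with the replicate number as a block (limma adjusted p = 0.0629).

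Estradiol, averaged over both siRNAs, changed 7 of the 145. GRAMD1C, the third of the GRAMD1 sterol carriers, rose by 0.61 log2 (limma adjusted p = 7.35e-06), with means of 8.59 with estradiol, against 7.93 with vehicle, under SRC-1 siRNA, and 8.59 against 8.05 under non-targeting siRNA. BRD9, a BAF subunit, rose by 0.19 (adjusted p = 0.0101). The cholesterol exporters ABCA1 and ABCG1 fell by 0.27 and 0.26, the cornified envelope gene LCE1D by 0.30, LBR, the lamin B receptor, by 0.16, and KLHL1 by 0.16. None of these 7 calls held with the covariate, though the values parted: GRAMD1C stood at 0.53 and ABCA1 at -0.28 log2, BRD9 at 0.11, KLHL1 at -0.10 and LBR at -0.08, and LCE1D at -0.06 and ABCG1 at -0.007. KLHL1 lay below the lower quartile of all 12 arrays and lost its call with a trended and robust variance, and LBR lost its call without siSRC-1_V replicate 2 or 3, at values between -0.18 and -0.08 over all fits. The others held in all 12 fits that left out 1 array. The share called, 7 of 145, was below the 9.96% of all probe sets.

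**Figure D4:**
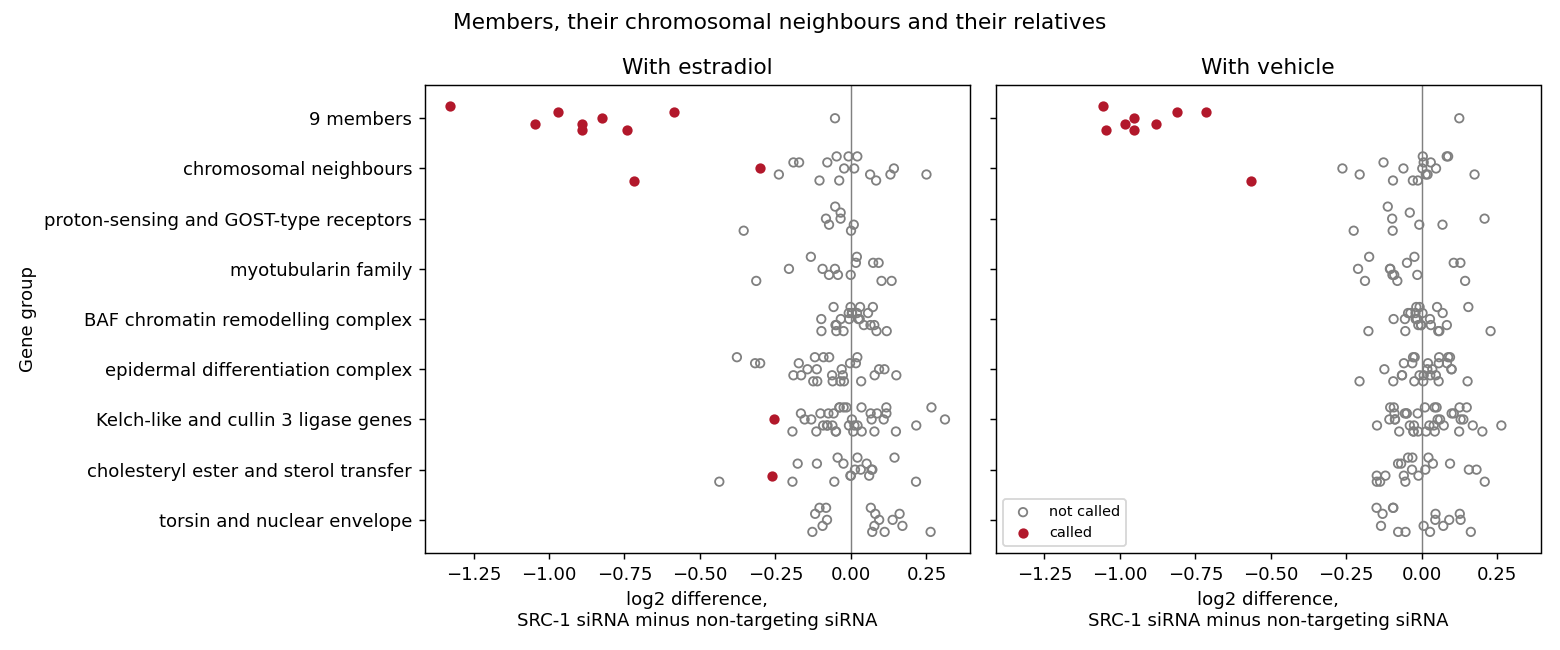
Log2 difference between SRC-1 and non-targeting siRNA (x axis) for the 9 members, the nearest measured genes on their chromosomes and 7 lists of relatives and partners (y axis), with estradiol (left) and with vehicle (right). Each point is 1 gene and filled points are called by limma; apart from the members, filled points are TMEM156 in both panels and GALC, NPC1 and KLHL21 with estradiol.

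The 9 genes lie on 8 chromosomes, and the nearest measured gene on each side of them, 18 in all, was compared as well. The median siRNA difference of these neighbours was -0.03 log2 under estradiol and 0.003 under vehicle. TMEM156 and GALC were called lower under estradiol and TMEM156 also under vehicle, and 0 were called higher; of all probe sets 1.07% were called lower under estradiol and 0.945% under vehicle. TMEM156, next to KLHL5 on chromosome 4, had means of 5.22 log2 with SRC-1 siRNA, against 5.94 with non-targeting siRNA, under estradiol, and 5.40 against 5.96 under vehicle. Its differences were -0.72 ± 0.11 (SE, limma adjusted p = 0.00741) and -0.57 ± 0.11 (0.0291), at levels just above the array lower quartiles of 5.13 to 5.19. The call under estradiol held in all 12 fits that left out 1 array and the call under vehicle in 7; with the replicate number as a block the call under vehicle was lost (limma adjusted p = 0.0529).

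GALC, which encodes a lysosomal galactosylceramidase and lies next to GPR65 on chromosome 14, differed by -0.30 log2 under estradiol (limma adjusted p = 0.0288, held in 7 of 12 fits and lost with the replicate block, at an adjusted p of 0.0539) and by -0.26 under vehicle, where it was not called. Averaged over both siRNAs GALC also fell by 0.20 log2 with estradiol (limma adjusted p = 0.0105), and with the covariate by 0.11, which was not called. CLMP, an adhesion gene next to GRAMD1B on chromosome 11, rose by 0.72 log2 with estradiol (adjusted p = 1.06e-06), while GRAMD1B showed no called hormone effect. GALC and CLMP were the 2 of 18 neighbours called for the averaged estradiol effect, where 9.96% of all probe sets were, so the neighbours lay near the background. The other 13 neighbours besides those flanking CRCT1 were TGDS, SOX21, KCNK10, HSF5, SEPTIN4, ZNF521, PSMA8, WDR19, TNFSF10, ECT2, FAM163A, TOR1AIP1 and SCN3B, and none was called in these comparisons. LCE5A and LCE3E, on either side of CRCT1, differed between siRNAs by -0.19 and 0.02 under estradiol and by 0.01 and 0.09 under vehicle, and were not called.

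Across arrays within a group the 9 genes did not move as 1 block. Deviations from the group means, over 12 arrays, correlated at -0.80 to 0.65 among the 36 pairs of members, with a median of 0.02; these are descriptions of few arrays that all genes share. The mean deviation of the 9 genes stayed between -0.034 and 0.066 log2 on every array. In siSRC-1_V replicate 1, where NCOA1 lay 0.32 log2 above its group mean, KLHL5 read 9.08 against a group mean of 8.85 and CRCT1 6.22 against 6.48. Deviations correlated with those of NCOA1, over the same 12 arrays, at 0.88 for KLHL5, 0.67 for SS18, 0.51 for GPR180 and 0.42 for TOR1AIP2. They correlated at -0.05 to 0.02 for GPR65, MTMR4 and GRAMD1B, and at -0.55 for NCEH1 and -0.70 for CRCT1. NCOA1 deviated by 0.32, -0.24 and -0.08 log2 on the siSRC-1_V arrays and by -0.08 to 0.08 on all others. These correlations thus rest mainly on the siSRC-1_V group. How often other probe sets correlate as strongly was not computed, so nothing is read from them.

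The genes whose pattern lay closest to the median profile of the 9 were LIN28B, IL1A, SPP1, PGGT1B and SLC14A1, at root mean square distances of 0.09, 0.11, 0.11, 0.12 and 0.12 log2 over 12 centred arrays. The members themselves lay between 0.05 (MTMR4) and 0.45 (TOR1AIP2) from it. LIN28B, an RNA-binding protein that blocks let-7 maturation, differed between SRC-1 and non-targeting siRNA by -0.80 log2 under estradiol and -0.70 under vehicle. IL1A, the interleukin-1α gene, differed by -0.99 and -0.95, and SPP1, which encodes osteopontin of bone matrix, by -0.87 and -0.71. PGGT1B, a subunit of a protein prenyltransferase, differed by -0.56 and -0.70 and SLC14A1, a urea transporter, by -0.63 under both. All 5 were found by likeness, so their losses describe the pattern and test nothing.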

How the data were processed

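Transcripts of 12 cultures, 3 in each of 4 groups, were measured by Affymetrix Human Gene 1.0 ST array. The authors deposited log2 expression values per probe set, made with affy and limma per the submitters' processing notes; their versions are not given in the sources used here. The table holds 33297 probe sets. Those numbered lower than any that the platform annotation gives a gene, 4203, were left out as likely controls, and 29094 were tested; 19460 carried 1 symbol, 1754 several and 7880 none, by the platform annotation.

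The limma fit (version 3.58.1, R 4.3.3) had one mean per group, with 8 residual and 3.15 prior degrees of freedom; tests were two-sided. The p-values measure the spread among cultures labelled biological replicates. A call needed p under 0.01 and, after Benjamini-Hochberg adjustment, under 0.05, as in the design text. Named genes were the 9 members, NCOA1, the nearest measured gene on each side of a member, up to 3 called genes of each list (or the 2 brightest where none was called), and the 5 profiles most like the members by root mean square distance. MTMR3, SS18L1, GRAMD1A, GPR4 and AADAC were chosen after their values were seen. The members and the lists were chosen with earlier results of these data known. The code was tested on simulated data. A GSK3 siRNA pool named in the design text was not analysed here. Alternatives covered filters, normalization, variance models, array weights, a replicate block, a covariate and leaving out each array.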

Additional observations from a re-analysis of the deposited data

How the results depend on the processing

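With SRC-1 siRNA 8 of the 9 genes stayed called lower under each treatment in every fit of the rule's probe sets, at -1.44 to -0.57 log2 with estradiol and -1.13 to -0.70 with vehicle. For the averaged estradiol effect 2 of 9 were called, 2 in each fit without 1 array, and 0 with the left-out probe sets as covariate. With SRC-1 siRNA alone 3 were called for estradiol, against 1 after renewed quantile normalization, 0 with the covariate, 1 with only the compared arrays and 1 to 3 without 1 array. With non-targeting siRNA alone 2 were called, against 1 with the replicate block, 0 with the covariate, 1 with only the compared arrays and 0 to 3 without 1 array. Of the 145 measured list genes 9 were called in at least 1 comparison, against 21 without the dimmest 40% of probe sets, 15 after renewed quantile normalization, 22 with a trended and robust variance, 1 with the covariate and 7 to 16 without 1 array. The KLHL5 estradiol effect of -0.06 turned to 0.0018 without siSRC-1_V replicate 1 (range without 1 array -0.11 to 0.0018), and that of TOR1AIP2, -0.09, to 0.20 in its other probe set; the cause was not tested. Probe sets called with SRC-1 siRNA and vehicle numbered 352, against 728 with the filter, 857 with the trended variance, 90 with only the compared arrays and 169 to 338 without 1 array. With estradiol they numbered 524, against 1117, 1246 and 174 under those settings, 121 with the covariate and 216 to 547 without 1 array. The averaged estradiol effect called 2898, against 212 with the covariate and 2076 to 3725 without 1 array; with SRC-1 siRNA alone 2001, against 106 with the covariate, 958 with only the compared arrays and 1042 to 2956 without 1 array; with non-targeting siRNA alone 793, against 366 with the covariate. The labels do not say whether equal replicate numbers pair the samples. Same-numbered arrays correlated at only -0.035 to 0.209 in their deviations, yet 10 of 12 arrays correlated best with their own number. The main fit did not include the replicate number, so its p-values leave out any such structure. With the replicate block 3290 probe sets were called for the averaged effect and 2 of the 9 genes. Having 3 arrays a group and values near the array lower quartile limits which small differences can be resolved.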
